A study of Mus musculus with 2 samples.

Results

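Natural killer cells and group 1 innate lymphoid cells (ILC1) of mouse liver were described in 2 droplet single-cell RNA libraries, 1 from liver labelled as lacking the imprinted gene Slc22a18 and 1 from liver labelled as wild type. Strain, age, sex, the number of animals and the deleted stretch of the gene were not given in the sources used here. The members were chosen from their own RNA: a barcode needed at least 300 detected genes, at most 20% mitochondrial molecules and at least 2 molecules in all of Ncr1, Klrb1c, Eomes and Klre1. It could hold at most 1 molecule of Cd3d, Cd3e and Cd3g together, 0 of Cd79a and Clec4f, at most 1 of Stab2 and Ptprb, and at most 1 of Mki67 and Top2a. This left 64 of 11458 kept barcodes in the knockout-labelled library and 78 of 12431 in the wild-type library, or 142 of 23889 in all.

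The libraries held 103478998 unique molecules (UMIs) in 11741 barcodes and 105556354 UMIs in 12796 barcodes, in the knockout-labelled and the wild-type library. The members held 182213 UMIs in the knockout-labelled library, with 618 to 9851 per barcode, and 286833 UMIs in the wild-type library, with 515 to 22416. The libraries shared 38 barcode sequences, of which 0 belonged to a member. Each genotype rests on 1 library, which allows no test between them, and genotype, animal and handling cannot be told apart. The 95% intervals are exact and cover counting error only. Levels are given as counts per 1000000 UMIs (CPM) of summed UMIs.

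Natural killer cells and ILC1 are lymphocytes that kill or signal without a rearranged antigen receptor. Both carry the receptor NKp46 (Ncr1) and, in some mouse strains, NK1.1 (Klrb1c), and both express the transcription factor T-bet (Tbx21). Conventional natural killer cells circulate and use Eomes, perforin and granzymes, whereas liver ILC1 reside in the sinusoids, carry CD49a (Itga1) in place of CD49b (Itga2), and are known for cytokines and the death ligand TRAIL (Tnfsf10). T cells share much of this program and differ by the CD3 chains and a rearranged T cell receptor, which is why the rule sets a limit on CD3 transcripts.

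The label was first set against the markers, with no test since the rule used several of them. The 14 NK and ILC1 markers were all found in the members of both libraries and summed to 18824 CPM in the knockout-labelled library and 16354 CPM in the wild-type library, against 2989 and 2308 CPM in T cells of those libraries. The T cells compared were barcodes with at least 2 CD3 UMIs and 0 UMIs of the 4 genes of the rule, so those genes are at 0 there by construction. In NK-gene barcodes with CD3 but no Trac, described below, the same 14 markers summed to 29597 and 26701 CPM. The list therefore did not set the members apart from those barcodes. The 8 ILC1 list genes did not set the members apart, at 785 and 757 CPM in members, against 940 and 770 CPM in T cells and 729 and 719 CPM in endothelial cells. Some genes outside the rule differed as the NK and ILC1 list did: Tyrobp, which encodes the adaptor DAP12, stood at 1268 CPM in knockout-labelled members and 1210 CPM in wild-type members, against 38.8 and 39.9 CPM in the T cells. Perforin (Prf1) stood at 296 CPM in the members of each library, against 17.6 and 16.3 CPM in the T cells.

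Transcripts of other lineages were present in the members. Of the 12 T cell markers, 12 had a UMI in knockout-labelled members and 9 in wild-type members, with Cd4, Cd8b1 and Cd5 at 0 in the wild-type members. Their sum was 1180 CPM in knockout-labelled and 906 CPM in wild-type members, with 0 to 24 and 0 to 21 UMIs per barcode. Trbc2, the constant segment of the receptor beta chain, made up 83 of the 215 T cell marker UMIs in knockout-labelled members and 86 of 260 in wild-type members, whereas Trac, the alpha constant segment, had 2 and 5. Of the 7 ILC2 markers the cytokine genes Il5 and Il13 had 0 UMIs in both libraries. The list as a whole summed to 1076 CPM in knockout-labelled and 679.8 CPM in wild-type members, against 637 and 502 CPM in T cells, and the nuclear receptor gene Rora, which is not limited to ILC2, held most of these UMIs, with 154 in knockout-labelled and 150 in wild-type members. At least 1 of 8 hepatocyte markers, such as albumin, was found in each of the 142 members, and together they held a median share of 1.93% of the UMIs per barcode in the knockout-labelled library and 1.42% in the wild-type library; their part in the results below was not tested. The hepatocyte list stood at 11810 CPM in knockout-labelled and 14294 CPM in wild-type members, against 6090 and 6859 CPM in the T cells. In shallow members it stood at 24803 and 29664 CPM, above their 8045 and 9790 CPM of the NK and ILC1 list. Single barcodes weigh on the wild-type values: 1 held 1089 of the 4100 hepatocyte UMIs of the members, and 1 shallow barcode held 348 of the 1406 of the shallow members. In the knockout-labelled members the highest barcode held 197 of 2152.

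**Figure D1:**
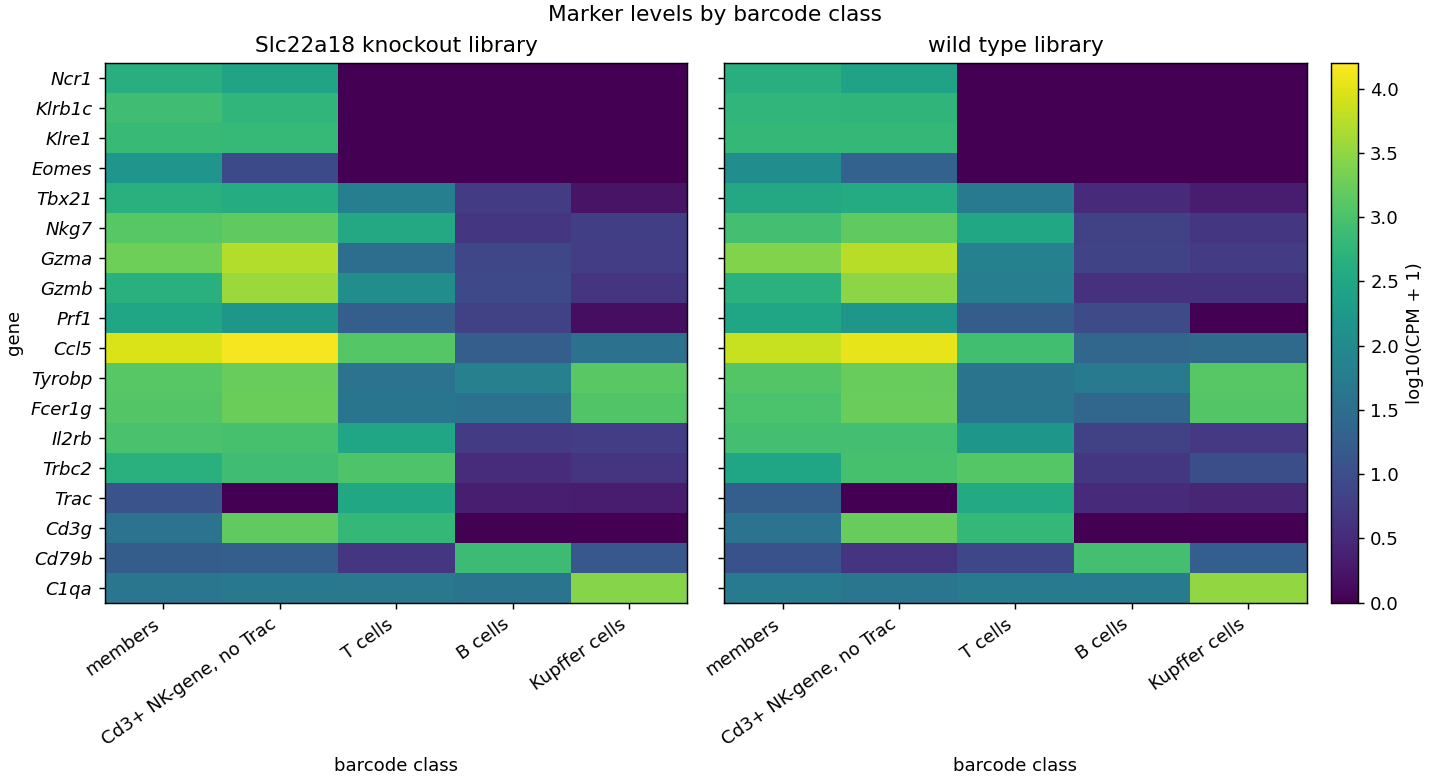
Levels of 18 marker genes, as log10 of CPM plus 1, in the knockout-labelled library (left) and the wild-type library (right), for members, for NK-gene barcodes with CD3 but no Trac, and for T, B and Kupffer cells chosen by plain UMI rules. The 4 genes of the rule are at 0 in T, B and Kupffer cells by construction, while Tyrobp, Fcer1g, Prf1 and Gzma, which the rule did not use, are high in members, and Tyrobp and Fcer1g are high in Kupffer cells too. Gzma is higher in the NK-gene barcodes with CD3 but no Trac than in the members.

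The members of both libraries were split into deep and shallow barcodes at 2500 UMIs, a divide chosen after seeing the data. No member lay between 2302 and 3096 UMIs in the knockout-labelled library or between 2370 and 2818 UMIs in the wild-type library. The wild-type members had wider gaps on either side, from 1744 to 2350 and from 2879 to 3614 UMIs. The divide is thus a cut through a range of depths there. Above it lay 25 of 64 knockout-labelled members, with a median of 5544 UMIs, and 36 of 78 wild-type members, with a median of 6066. Below it lay 39 and 42 members, with medians of 1055 and 1043 UMIs. Most effector transcripts were in the deep members. Ccl5, a chemokine of activated lymphocytes, had a median of 68 UMIs per deep member in the knockout-labelled library and 52 in the wild-type library, against 1 and 0 in the shallow ones.

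Scaled to UMIs, Ccl5 stood at 11854 CPM in deep knockout-labelled members against 936 CPM in shallow ones, and at 8186 CPM against 1308 CPM in the wild-type library. With every barcode thinned to 939 UMIs, which leaves out 13 knockout-labelled and 15 wild-type shallow members, Nkg7 was found in 60.0% of deep against 34.6% of shallow members in the knockout-labelled library and in 75% against 22.2% in the wild-type library. Unthinned, these shares were 96.0% against 30.8% and 91.7% against 23.8%. B cells, which do not make Nkg7, had a UMI of it in 1.52% and 1.996% of barcodes at median depths of 3735 and 3952 UMIs. Nkg7, a protein of cytotoxic granules, stood at 1573 CPM in deep against 334 CPM in shallow knockout-labelled members, and at 961 CPM against 422 CPM in wild-type members. The genes of the rule did not follow this order: Klrb1c stood at 699 CPM in deep against 1181 CPM in shallow knockout-labelled members, and at 501 against 971 CPM in wild-type members. The rule asks for 2 UMIs at any depth, which favours a high level in a shallow barcode. The shallow members also held a larger share of hepatocyte RNA, with a median of 2.43% in the knockout-labelled library and 2.48% in the wild-type library, against 0.601% and 0.538% in deep members, while the median hepatocyte UMIs per barcode were 27 and 23.5 against 30 and 35. Malat1, a nuclear RNA, took a median of 1.73% and 1.58% of their UMIs, against 0.834% and 1.16% in deep members.

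**Figure D2:**
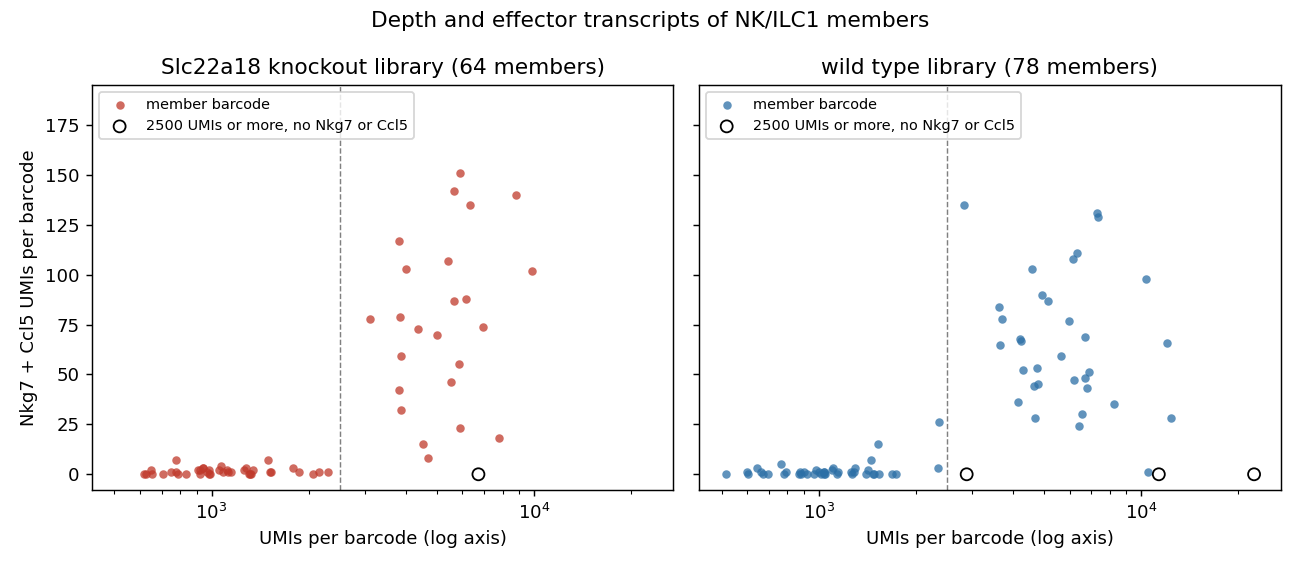
Total UMIs per member barcode (log axis) against its Nkg7 and Ccl5 UMIs, in the knockout-labelled library (left) and the wild-type library (right); the dashed line marks 2500 UMIs. Shallow members hold few effector UMIs, most deep members hold many, and circles mark the 1 knockout-labelled and 3 wild-type deep barcodes that hold neither transcript.

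In deep members the effector genes were as follows. Gzma, the granzyme A protease gene, was found in 18 of 25 knockout-labelled deep members at 0 to 43 UMIs (median 7), and in 23 of 36 wild-type deep members at 0 to 95 UMIs (median 8). Prf1 was found in 18 of 25 and in 24 of 36, and Gzmb, granzyme B, in 18 of 25 and in 26 of 36. Members just inside the lower bound of the rule had Nkg7 less often than those with more UMIs of the rule genes, and were shallower. With exactly 2 such UMIs, 20% of 20 knockout-labelled and 15.4% of 26 wild-type barcodes had Nkg7. Their median depths were 984 and 1043 UMIs. With 3 or more it was 72.7% of 44 and 75% of 52, at 2699 and 4230 UMIs. Just outside the bound, at 1 UMI, it was 7.14% of 98 and 11.5% of 96, at 1614.5 and 1181.5 UMIs. These shares were not thinned to equal depth, and the part of depth in them was not tested.

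Some deep members lacked both Nkg7 and Ccl5. There was 1 such barcode in the knockout-labelled library, with 6726 UMIs, and there were 3 in the wild-type library, with 2879, 11354 and 22416 UMIs. The barcode of 22416 UMIs held 267 of the 296 Cst3 UMIs, 230 of the 261 Cd74 UMIs and 112 of the 121 H2-Aa UMIs of all wild-type members. It also held 13 of their 13 UMIs of Xcr1, a receptor of cross-presenting dendritic cells, and 4 of 9 of Flt3. It met the rule through 2 UMIs of Klre1, with Ncr1, Klrb1c and Eomes at 0. The wild-type barcode of 11354 UMIs was the one with 1089 hepatocyte UMIs, 9.59% of its own. It met the rule through 1 UMI of Klrb1c and 1 of Eomes. The knockout-labelled barcode of 6726 UMIs held 40 of the 58 Ghr UMIs, the growth hormone receptor gene, and 104 Albumin UMIs. Its doublet score was above 0.276, the threshold used for both libraries. A further wild-type barcode, of 10515 UMIs, held 1 Nkg7 UMI, 0 Ccl5 UMIs and 2 UMIs of the rule genes. It is not among the 4 deep barcodes left out below.

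The members were then placed along 2 lists that the rule did not use. The ILC1 list held Itga1, Cxcr6, Cxcr3, Cd200r1, Il7r, Tnfsf10, Zfp683 and Gpr55, and the conventional NK list Itga2, Itgam, S1pr5, Klra4, Klra8, Klra9, Klrg1 and Cma1. Each barcode was said to lean to the list with more UMIs, which cuts a range and does not name a type. In the knockout-labelled library 39 of 64 members leaned to the ILC1 list (60.9%, 47.9 to 72.9%), 17 to the conventional NK list and 8 to neither. In the wild-type library 49 of 78 did (62.8%, 51.1 to 73.5%), with 20 and 9 for the other classes. These shares differed by less than their counting intervals. The lead was at most 1 UMI in 23 knockout-labelled and 27 wild-type members.

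The share was also taken by depth. Among deep members 11 of 25 in the knockout-labelled library leaned to the ILC1 list (44%, 24.4 to 65.1%), and 22 of 36 in the wild-type library (61.1%, 43.5 to 76.9%), with intervals that overlap. Among shallow members it was 28 of 39 (71.8%, 55.1 to 85.0%) and 27 of 42 (64.3%, 48.0 to 78.4%), so deep and shallow members overlap in their intervals in each library. Itga1 was found in 24 of 39 knockout-labelled and 22 of 42 wild-type shallow members, at 891 and 1013 CPM, against 138 and 200 CPM in deep members. Endothelial cells held Itga1 at 606 CPM in the knockout-labelled and 595 CPM in the wild-type library, while B cells held it at 19.7 and 12.3 CPM. Free RNA was not subtracted, and its part in the leaning was not tested.

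**Figure D3:**
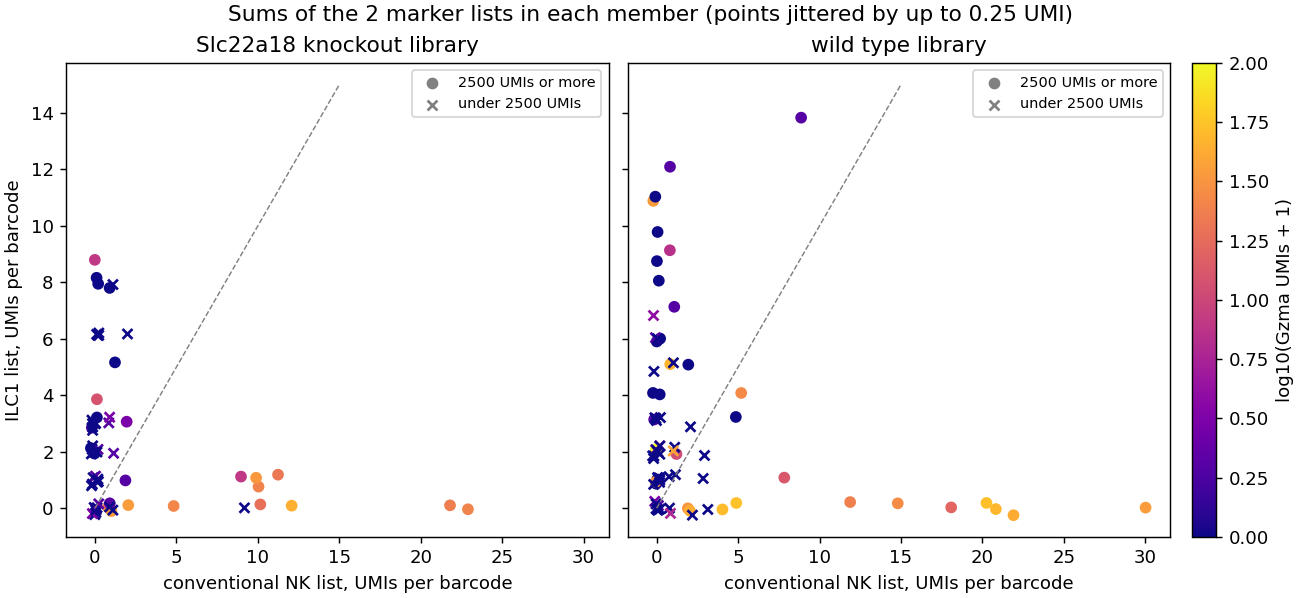
Summed UMIs of the conventional NK list (x axis) and the ILC1 list (y axis) in each member, in the knockout-labelled library (left) and the wild-type library (right), coloured by log10 of Gzma UMIs plus 1; circles are members of 2500 UMIs or more, crosses shallower ones, and the dashed line marks equal sums. Most members lie along 1 axis, and high Gzma is more frequent along the conventional NK axis, with several high-Gzma members along the ILC1 axis in the wild-type library.

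Deep ILC1-leaning members were set against deep conventional-NK-leaning members within each library. A gene passed if it held at least 50 summed UMIs, differed at least 2-fold with a 95% interval that excludes 1, and was found in at least 5% of the barcodes on the higher side, in both libraries. Of 440 genes that could be read in both libraries, 7 were higher (1.59%) and 20 lower (4.55%) in ILC1-leaning members. The higher ones were Gm36723, St6galnac3, Rgs1, Cd7, Trbc2, Xcl1 and Tox. The lower ones included Gzma, Prf1, Irf8, Anxa2, Ust, Ubald2 and Ctla2a, the interleukin receptor chains Il18r1, Il18rap and Il12rb2, and Itga4. The comparison rests on 11 and 14 barcodes in the knockout-labelled library and 22 and 14 in the wild-type library. Over members of any depth 25 of 601 genes were higher (4.16%) and 25 lower (4.16%), but there ILC1-leaning members were shallower, with a median of 1330 against 4365 UMIs in the knockout-labelled library and 1694 against 4546 in the wild-type library.

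Of the cytotoxic genes, Gzma and Prf1 were lower in ILC1-leaning members by the size rule in both libraries. Gzma had 21 UMIs in 11 ILC1-leaning knockout-labelled members against 309 in 14 conventional-NK-leaning ones, a CPM ratio of 0.0776 (0.0473 to 0.121). In the wild-type library it had 224 UMIs in 22 ILC1-leaning members against 455 in 14 conventional-NK-leaning ones, a ratio of 0.320 (0.271 to 0.376). Per barcode, Gzma ran from 0 to 11 in ILC1-leaning and from 1 to 43 in conventional-NK-leaning knockout-labelled members, and these ranges overlap. In the wild-type library it ran from 0 to 95 and from 0 to 54, and 1 ILC1-leaning barcode held 95 UMIs. Prf1 had 9 against 44 UMIs in the knockout-labelled library and 25 against 55 in the wild-type library. The gene with identifier ENSMUSG00000121360, which has no symbol in the files, had 1 against 63 UMIs in the knockout-labelled and 0 against 112 in the wild-type library. Gzmb did not follow: it had 48 against 27 UMIs in the knockout-labelled and 92 against 37 in the wild-type library. Nkg7 did not pass, at ratios of 0.658 and 0.546.

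The genes higher in ILC1-leaning members came from other functions. Xcl1, the chemokine that attracts XCR1-bearing dendritic cells, had 131 against 26 UMIs in the knockout-labelled library (ratio 5.75, 3.75 to 9.13) and 240 against 61 in the wild-type library (2.56, 1.92 to 3.44). Rgs1, a brake on G protein signals of chemokine receptors, had 138 against 22 UMIs and 235 against 31. Cd7, a surface protein of T and NK cells, had 78 against 12 and 108 against 20. Tox, a nuclear factor needed for the development of innate lymphocytes, had 87 against 24 and 124 against 38. Trbc2 had 67 against 11 and 59 against 13, and was found in 90.9% of ILC1-leaning against 21.4% of conventional-NK-leaning knockout-labelled members and in 72.7% against 42.9% of wild-type ones. Eomes, which the rule but not the leaning used, had 0 against 25 UMIs in the knockout-labelled and 1 against 30 UMIs in the wild-type library.

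Of these 27 genes, 6 of the 7 higher and 13 of the 20 lower also passed in both libraries with the 4 deep barcodes that lack Nkg7 and Ccl5 left out, all of which leaned to the ILC1 list. Among those that no longer passed were Gm36723, Il18r1 and Il12rb2. Gm36723 fell under the UMI minimum in the knockout-labelled library, with 44 against 5 UMIs. Its ratios did not shrink, at 11.2 in the knockout-labelled and 14.9 in the wild-type library, against 10.3 and 12.9 before. Il18r1 stood at 0.519 in the knockout-labelled and 0.461 in the wild-type library, and Il12rb2 at 0.531 and 0.641. Gzma then stood at a ratio of 0.0867 in the knockout-labelled library and 0.428 in the wild-type library, and Xcl1 at 6.42 and 3.42. The wild-type barcode of 10515 UMIs, with 1 Nkg7 and 0 Ccl5 UMIs, stayed in on the ILC1-leaning side. Deep members were also counted by Gzma and Trbc2 without the lists, a pair of genes chosen because they differed between the leanings. Gzma of 10 or more UMIs with 0 Trbc2 was found in 9 of 25 knockout-labelled and 8 of 36 wild-type barcodes, and Gzma under 10 with Trbc2 present in 10 and 12. Both high Gzma and Trbc2 were found in 3 knockout-labelled and 10 wild-type barcodes, and neither in 3 and 6.

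The start regions of Gzma and Xcl1 are shown because these genes differ in opposite directions between the leanings. They are RefSeq sequences of 300 bases on GRCm38.p6, from 250 bases before to 50 after the start, 5′ to 3′ along the gene. Capitals mark matches on either strand to 2 motifs, the RUNX motif TGTGGTT, met here as its reverse complement, and the T-box motif GGTGTGA. No match overlaps another.
Gzma, chr13:113100932-113101231, minus strand: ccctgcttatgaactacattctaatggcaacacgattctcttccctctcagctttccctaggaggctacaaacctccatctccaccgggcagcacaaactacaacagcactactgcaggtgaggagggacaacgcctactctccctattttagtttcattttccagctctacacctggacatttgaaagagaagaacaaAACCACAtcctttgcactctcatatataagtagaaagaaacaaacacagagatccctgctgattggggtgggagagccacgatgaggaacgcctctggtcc
Xcl1, chr1:164935473-164935772, minus strand: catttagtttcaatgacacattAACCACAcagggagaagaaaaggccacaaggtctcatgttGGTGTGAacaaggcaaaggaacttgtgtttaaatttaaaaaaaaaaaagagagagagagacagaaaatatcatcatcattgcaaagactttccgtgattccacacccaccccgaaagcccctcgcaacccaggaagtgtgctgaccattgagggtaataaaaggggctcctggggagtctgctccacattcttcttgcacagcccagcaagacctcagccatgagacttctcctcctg
Gzma held 1 RUNX match and Xcl1 held 1 RUNX and 1 T-box match. Of 32851 such promoters 5.27% held the RUNX letters and 3.98% the T-box letters. RUNX3, T-bet and EOMES are known regulators in these lymphocytes, but a match of letters is a description and not a binding site.

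**Figure D4:**
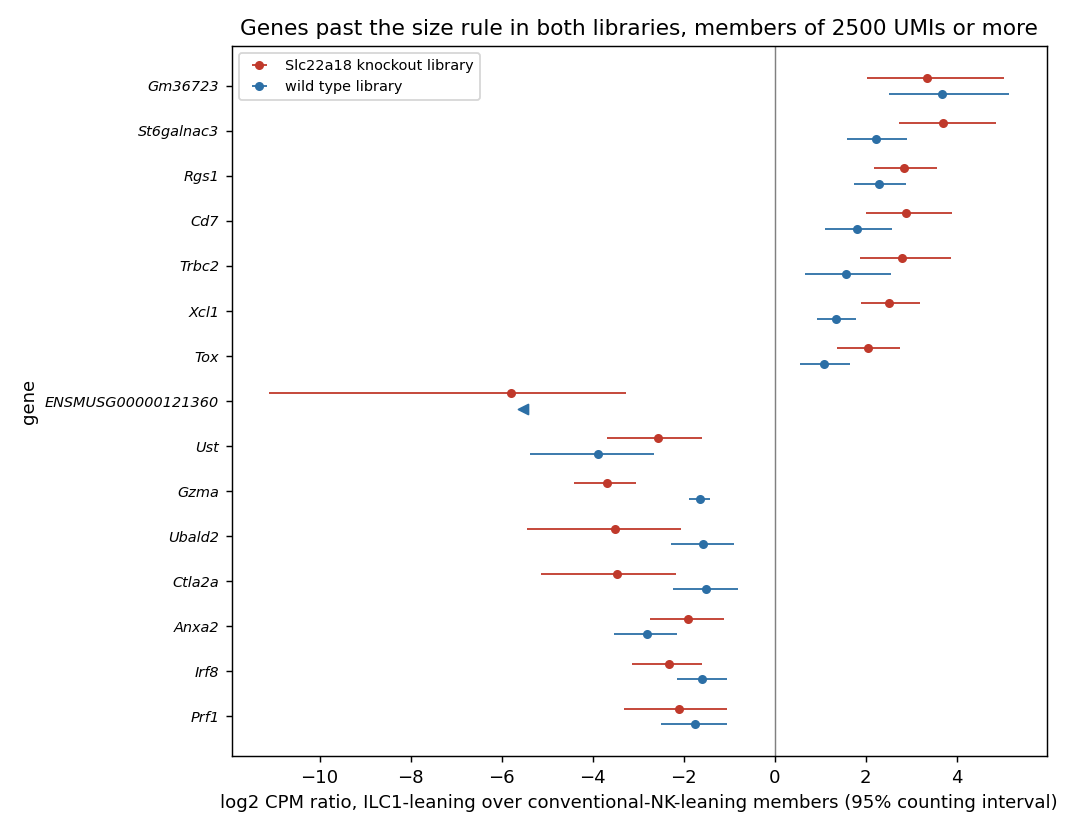
Log2 CPM ratio of deep ILC1-leaning over deep conventional-NK-leaning members, with 95% counting intervals, for the 7 higher genes and the 8 lower genes with the largest differences, with the knockout-labelled library above the wild-type library for each gene. The triangle marks the upper bound of a gene with 0 UMIs on the ILC1-leaning side. Xcl1, Rgs1, Cd7 and Tox lie to the right of 0 and Gzma, Prf1 and Irf8 to the left in both libraries.

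The CD3 limit of the rule left out a sizeable set of barcodes with the same receptors. Of 319 knockout-labelled and 427 wild-type kept barcodes with at least 2 UMIs of the rule genes, 226 and 310 failed the limit. Those that passed every other limit numbered 141 and 204, of which 68 and 113 had 0 UMIs of Trac. These 68 and 113 made up 0.593% (0.461 to 0.752%) of kept barcodes in the knockout-labelled library and 0.909% (0.750 to 1.09%) in the wild-type library. Their Cd3g averaged 8.53 and 8.87 UMIs per barcode. Ncr1 was found in 61.8% and 53.1% of them, Klrb1c in 95.6% and 89.4%, and Itga1 in 79.4% and 79.6%.

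This set carried granule transcripts at a high level, beside T cell markers near the level of the T cells. The 12 T cell markers summed to 3865 and 4284 CPM, against 4245 and 4583 CPM in the T cells. The ILC1 list stood at 1155 and 1281 CPM, against 785 and 757 CPM in the members and 940 and 770 CPM in the T cells. Gzmb was found in 89.7% of the 68 knockout-labelled and 84.1% of the 113 wild-type barcodes, at 3738 and 2970 CPM, against 456 and 481 CPM in the members. Gzma stood at 5167 and 5604 CPM, against 1866 and 2559 CPM in the members. Eomes was found in 1.47% and 6.19%, and Trdc, the constant segment of the receptor delta chain, in 25% and 24.8%. Leaning to the ILC1 list was seen in 91.2% and 87.6% of them. Trbc2 stood at 822 and 945 CPM, near the 1119 and 1249 CPM of the T cells. Counting 0 UMIs of Trac in place of the CD3 limit would give shares of 1.13% and 1.496% of kept barcodes.

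The knockout label could not be checked in these cells. Slc22a18, at chr7:143473736-143499334 on GRCm38, had 2 UMIs in the knockout-labelled members and 2 in the wild-type members. Classes with more UMIs did not show its loss either. Hepatocytes had 55 against 34 UMIs (ratio 1.70, 1.09 to 2.69), Kupffer cells 105 against 105 (0.818, 0.618 to 1.08) and endothelial cells 160 against 203 (0.862, 0.697 to 1.07). The 3' tags may lie outside the deleted stretch, which was not tested. Slc15a2, a proton-coupled transporter of short peptides on chromosome 16, was found in 12 of 64 knockout-labelled members with 18 UMIs in all, and in 0 of 78 wild-type members. That is at least 9.44-fold higher against a floor of 3 UMIs over the wild-type members, and the exact 95% lower bound of the ratio, which includes the counting error of the 18 UMIs, was 6.92. The same direction was seen outside these cells, with 122 against 0 UMIs in T cells and 1492 against 2 UMIs in endothelial cells, so it was not limited to the members.

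The members made up 0.559% (0.430 to 0.713%) of kept barcodes in the knockout-labelled library and 0.627% (0.496 to 0.782%) in the wild-type library. Of the barcodes with a UMI of the leukocyte gene Ptprc they made up 1.46% and 1.59%. The difference was within the counting intervals. A share also moves with how many other cells were recovered.

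Between the libraries, the members' transcripts were compared gene by gene by the same size rule. Of 1980 genes with at least 50 summed UMIs, 31 were higher in the knockout-labelled library (1.57%) and 74 lower (3.74%). In 4 of the 31 and 33 of the 74, 1 barcode held 50% or more of the UMIs of the higher library. In 0 of the 31 and 10 of the 74 the members' level was under 10% of that in another cell class, in each library, among them the hepatocyte metabolic genes Bhmt and Ass1, and the part of free RNA in these was not tested. Without the 4 deep barcodes that lack Nkg7 and Ccl5, 13 of the 31 and 20 of the 74 still passed, with 16 higher (0.897%) and 37 lower (2.07%) in all of 1784. Among deep members 14 of the 31 and 56 of the 74 passed, with 22 higher (1.48%) and 88 lower (5.91%) in all of 1490. With no Trac UMI in place of the CD3 limit, 1 of the 31 and 18 of the 74 passed, with 47 higher (0.959%) and 57 lower (1.16%) in all of 4901.

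The largest differences to the knockout-labelled side were modest in UMIs. Abcb1b, a multidrug export pump of the P-glycoprotein family, had 47 UMIs in 17 knockout-labelled members against 13 UMIs in 7 wild-type members, a CPM ratio of 5.69 (3.03 to 11.5). It lies at chr5:8798147-8866315 on GRCm38. Its paralog Abcb1a, named after its values were seen, had 75 against 58 UMIs (ratio 2.04), and reads shared between these near-identical genes are uncertain. Abcb1b passed with the 4 barcodes left out and among deep members, but its ratio was 1.89 (1.37 to 2.61) under the Trac limit. Slfn2, a regulator of lymphocyte quiescence, had 37 against 13 UMIs (4.48, 2.33 to 9.19). Cnot1, a scaffold of mRNA deadenylation, had 55 against 30 UMIs (2.89, 1.82 to 4.66) and Gbe1, a glycogen branching enzyme, 47 against 27 (2.74, 1.67 to 4.58). Under the Trac limit none of these 3 passed, at ratios of 1.46, 1.30 and 1.30. Slfn2 also fell under 50 summed UMIs without the 4 barcodes and among deep members, with a ratio of 4.79 among the deep ones.

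Further genes above the rule were Xylt1, a xylosyltransferase of proteoglycans, with 35 against 17 UMIs, Btaf1, a TBP-associated factor, with 43 against 25, and Cemip2, a hyaluronidase, with 35 against 21. Xylt1 was the 1 higher gene that passed under the Trac limit, at a ratio of 2.01. Zfp512 had 40 against 25, Camkmt, a calmodulin methyltransferase, 38 against 24, and Pcm1, a centriolar satellite protein, 33 against 21. Ghr had 58 against 34 UMIs, of which the barcode of 6726 UMIs held 40, and stood at a ratio of 1.03 without it and its 3 companions. Klra5, a Ly49 receptor, had 51 UMIs in 13 knockout-labelled members against 32 in 10 wild-type members (2.51, 1.58 to 4.03), and among deep members it had 5 against 16. Klra genes are near-identical copies, so their reads may be split between them.

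To the wild-type side, each of the genes with the largest ratios, given next, had 50% or more of its wild-type UMIs in 1 barcode. Cd74, the class II invariant chain, had 13 UMIs in the knockout-labelled members against 261 in the wild-type members, and H2-Ab1, H2-Aa and H2-Eb1 of class II had 5 against 138, 7 against 121 and 4 against 130. Cst3, the protease inhibitor cystatin C, had 18 against 296. Wdfy4, needed for cross-presentation by dendritic cells, had 1 against 82, the scavenger receptor gene Cd36 1 against 84 and the costimulator gene Cd86 1 against 77. The sodium-calcium exchanger gene Slc8a1 had 1 against 49 and the adhesion gene Alcam 5 against 74. Without the 4 barcodes, the CPM ratios of Cd74, Cst3, H2-Ab1 and H2-Aa were 0.883, 1.03, 1.19 and 1.25, on 13 against 21, 18 against 25, 5 against 6 and 7 against 8 UMIs, while Cd86 and Slc8a1 stood at 0.075 and 0.10.

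In all, 33 of the 74 lower genes had 50% or more of their wild-type UMIs in 1 barcode. Cd83 and Serpina1e, given below, are among them. The largest share in 1 wild-type barcode was 13.8% for Klri2 and 9.76% for Ltb. Klri2, a lectin-like receptor of NK cells, had 14 UMIs in 9 knockout-labelled members against 65 UMIs in 21 wild-type members, a ratio of 0.339 (0.176 to 0.610), and 11 against 56 among deep members. Under the Trac limit the ratio was 0.737. Ltb, lymphotoxin beta, had 13 UMIs in 11 against 41 in 27 members (0.499, 0.245 to 0.950). Klf6, an immediate early factor, had 35 against 125 UMIs (0.441, 0.294 to 0.646). Fos had 24 against 129 UMIs, of which 1 wild-type barcode held 59, and Foxo1, a factor of lymphocyte homing and quiescence, 25 against 85, of which 1 held 37. Klf6, Fos and Foxo1 stood at ratios of 0.895, 0.841 and 1.10 under the Trac limit.

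Psme2, an activator subunit of the proteasome, had 14 against 46 UMIs and Mdh1, malate dehydrogenase, 17 against 55, of which 1 wild-type barcode held 20. Without the 4 barcodes neither passed, at ratios of 0.554 (0.276 to 1.05) for Psme2 and 0.757 for Mdh1, and Psme2 did not pass among deep members either. Cd83 had 14 against 58 UMIs, of which 1 wild-type barcode held 44. Mef2c, a transcription factor of lymphoid and myeloid cells, had 9 UMIs in 3 knockout-labelled members against 123 UMIs in 10 wild-type members (0.115, 0.0514 to 0.226), and 9 against 64 without the 4 barcodes. Serpina1e, a hepatocyte protease inhibitor gene, had 13 against 125 UMIs, 67 of them in 1 wild-type barcode. Its ratio was also below 1 in T cells, at 0.261, B cells, at 0.229, Kupffer cells, at 0.172, and hepatocytes, at 0.415. Mef2c, Serpina1e and Marchf3, the gene of a ubiquitin ligase with 8 against 70 UMIs, were the 3 genes that passed under all 3 added choices of barcodes, and 24 genes passed with the 4 barcodes left out and among deep members.

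**Figure D5:**
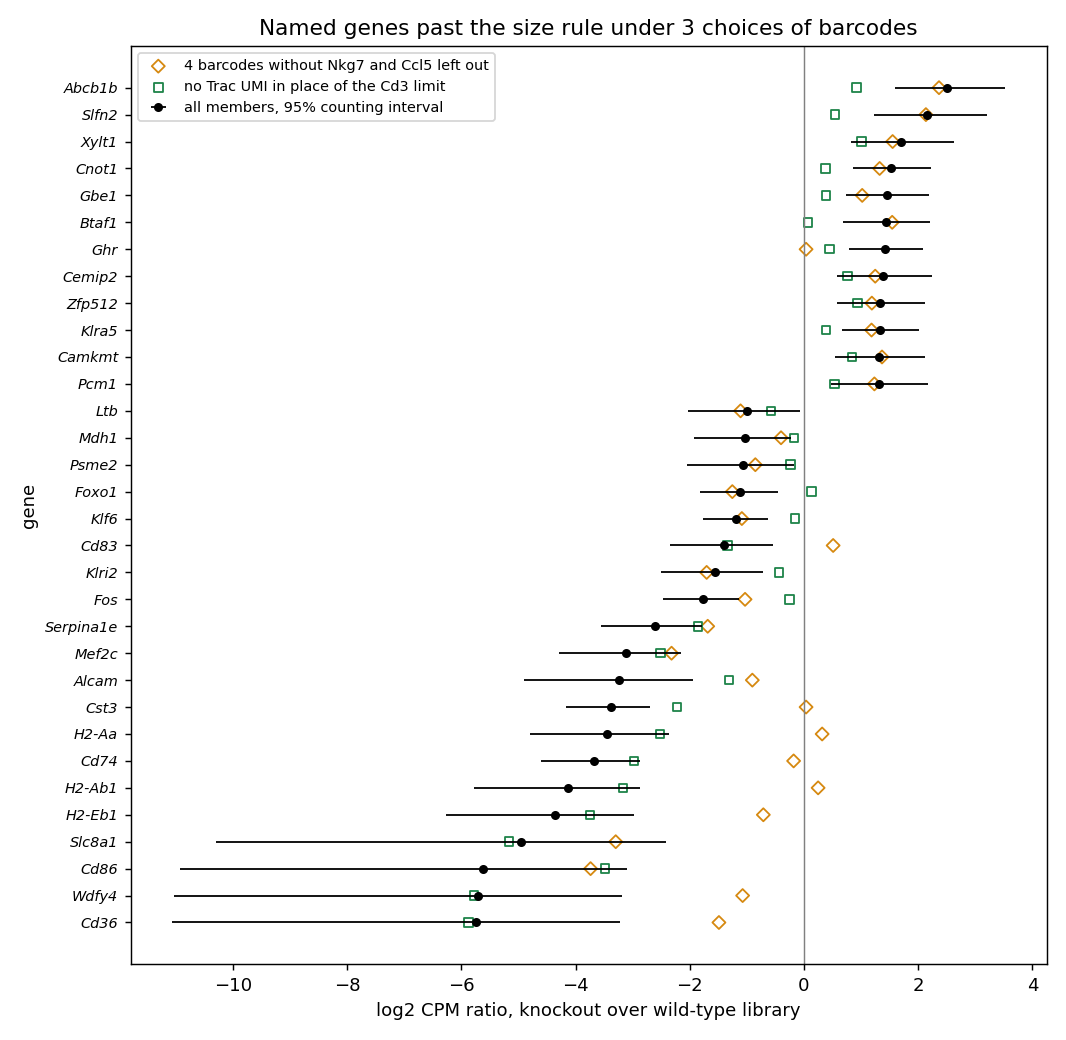
Log2 CPM ratio, knockout-labelled over wild-type members, for the named genes past the size rule: black points with 95% counting intervals for all members, diamonds with the 4 deep barcodes without Nkg7 and Ccl5 left out, squares with no Trac UMI in place of the CD3 limit. Cst3, H2-Aa, H2-Ab1 and Cd83 cross to the right of 0 in the diamonds, and the squares of the higher genes lie nearer to 0 than the black points.

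The following effector transcripts differed less than 2-fold between the libraries. Nkg7 had 231 UMIs in knockout-labelled and 250 in wild-type members (1.45, 1.21 to 1.75), Ccl5 1670 and 2022 (1.30, 1.22 to 1.39), and Gzma 340 and 734 (0.729, 0.639 to 0.830). Ccl4, another chemokine of activated lymphocytes, had 205 and 596 UMIs (0.541, 0.460 to 0.636). Srgn, the proteoglycan of the granules, had 155 and 326 (0.748, 0.614 to 0.909), and Klf2, a factor of lymphocyte circulation, 107 and 254 (0.663, 0.524 to 0.834). Prf1, Gzmb and Ifng stood at ratios of 1.0, 0.947 and 0.996, with intervals that include 1. Of the rule genes, Klrb1c stood at a ratio of 1.41, Eomes at 1.34, Klre1 at 1.13 and Ncr1 at 1.05. Among deep members Nkg7 stood at 1.64 (1.35 to 1.98) and Ccl5 at 1.45 (1.36 to 1.55). These include the deep barcodes that lack both transcripts. With those left out of all members, Nkg7 stood at 1.32 (1.10 to 1.58). Under the Trac limit it stood at 1.09 (0.997 to 1.20), an interval that includes 1.

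The gene lists give the functions around them, each as a count past the size rule and a median log2 ratio, beside a median of 0.038 over all 4323 genes with at least 20 UMIs. Measured means at least 20 UMIs, whereas the size rule needs 50, and 1.57% of all genes that reached 50 passed as higher and 3.74% as lower. Of the lists that follow, 17 NK receptors, 15 adaptors and kinases, 13 granule and death ligand genes and 17 cytokine receptor genes reached 50. Of the NK receptors 23 of 36 were measured, 1 was higher (Klra5) and 1 lower (Klri2), with a median of 0.0025. Of the receptor adaptors and kinases 21 of 25 were measured with a median of 0.24, 18 of them above 0, and 0 passed the rule. In this list Tyrobp stood at a CPM ratio of 1.05 and Fcer1g at 1.18. Of the granule and death ligand genes 20 of 24 were measured, with a median of -0.14 and 0 past the rule. Of the cytokine receptor and JAK-STAT genes 22 of 32 were measured, with a median of 0.22 and 0 past the rule.

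In the next lists, 7 cytokine and chemokine genes, 20 lymphocyte factors, 21 immediate early genes, 10 heat shock genes and 14 homing genes reached 50 UMIs. Of the cytokine and chemokine genes 8 of 20 were measured, with a median of -0.18, and Ltb was lower. Of the lymphocyte factors 23 of 29 were measured, with a median of 0.13, and Foxo1 was lower. Of the immediate early and dissociation genes 28 of 31 were measured with a median of -0.32, 22 of them below 0, and Fos and Klf6 were lower. Of the heat shock genes 15 of 22 were measured with a median of -0.32, 12 of them below 0, and 0 passed. Of the homing genes 19 of 25 were measured with a median of 0.41 and 0 past the rule, among interferon genes 9 of 33 with a median of -0.18 and 0, and among the beta-catenin, TCF and Ascl2 genes 11 of 22 with a median of 0.21 and 0. Only 3 of these interferon genes and 7 of these beta-catenin list genes reached 50 UMIs and could pass. The list of Slc22a18 and its imprinted neighbours had 4 of 20 measured, of which 0 reached 50 UMIs. Of the remaining lists, 11 NF-kB feedback, 13 class I presentation, 5 glycolysis and 3 transporter genes reached 50 UMIs. Of the NF-kB feedback genes 17 of 18 were measured, with a median of 0.16, and Cd83 was lower. Of the class I presentation genes 21 of 22 were measured, with a median of -0.12, and Psme2 was lower. Of the glycolysis and energy genes 16 of 24 were measured, with a median of -0.41, and Mdh1 was lower. Of the transporter genes 5 of 11 were measured, with a median of 0.031 and 0 past the rule, and of a list of Xlr and other X-linked genes 1 of 9, Xist, at 0.26.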

How the data were processed

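The deposited values are unnormalized whole-number UMI counts for each gene in each barcode, made with Cell Ranger 8.0.1 per the file headers from Chromium 3' v3 libraries per the labels' protocols. Cell Ranger and STAR are listed in the submitters' processing notes, with mm10 as build. The annotation release and cell calling settings were not given in the sources used here. The 2 libraries, 1 per genotype, held 103478998 and 105556354 UMIs (knockout-labelled and wild type).

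From the counts, barcodes were kept at 300 or more genes and at most 20% mitochondrial UMIs, members were chosen by the rule in the text, and UMIs were summed per class. CPM ratios carry exact (Clopper-Pearson) 95% intervals that cover counting error only, and barcodes are not replicates, so no p-value was computed. A gene passed the size rule at 50 or more summed UMIs, a ratio of at least 2, an interval that excludes 1 and detection in 5% or more of members on the higher side. List medians are log2 ratios over genes with 20 or more UMIs, with a pseudocount of 0.5. A UMI count of 0 was bounded by a floor of 3 UMIs over the group. Doublets were scored with Scrublet (scanpy 1.11.5) at a threshold of 0.276 and kept, since the rule has no doublet limit. This was the automatic threshold of the wild-type library, used for both, whereas that of the knockout-labelled library was 0.31. At 0.276, 3.09% and 3.45% of kept barcodes were marked, and 2 and 1 members.

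Genes were named by rule: the 12 largest ratios in each direction, each list's genes past the size rule or else its 3 with most UMIs, the rule genes, Slc22a18, and up to 8 genes per direction between the leanings. The effector genes set out per barcode were added after their values were seen. The members and lists were chosen with earlier results of these data known. Coordinates are from a GRCm38 annotation in which 31961 of 33696 identifiers were placed. On simulated counts for these members the size rule called 96 of 100 genes set 3-fold apart, 99 of 100 set 6-fold apart and 7 of 1780 set equal. The simulation does not stand in for replicate libraries. Python 3.11.15, numpy 2.4.6, scipy 1.17.1, pandas 2.3.3 and matplotlib 3.10.9 were used.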

Additional observations from a re-analysis of the deposited data

How the results depend on the processing

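No paired analysis was possible because each genotype has 1 library. The choices of 2500 UMIs or more, of leaving out the 4 deep barcodes without Nkg7 and Ccl5, and of a Trac limit in place of the CD3 limit were made after seeing the data. The cause was not tested for any of the shifts given here, beyond the fewer or different barcodes that each choice takes.

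The count of genes higher in the knockout-labelled library was 31, against 13 with at least 3 UMIs of the rule genes, 51 with cells weighted equally, 260 with no UMI minimum, 5 at 100 UMIs, 16 without the 4 barcodes and 47 under the Trac limit. The count lower was 74, against 27 with at least 3 UMIs of the rule genes, 224 with no minimum, 33 at 100 UMIs and 37 without the 4 barcodes. The share of members in the knockout-labelled library was 0.384% with at least 3 UMIs of the rule genes, 0.419% without the members with a hepatocyte share above 2.94%, 0.218% for deep members, 1.13% under the Trac limit and 1.46% of barcodes with Ptprc. In the wild-type library it was 0.418% with at least 3 UMIs of the rule genes, 0.491% with 0 CD3 UMIs, 0.290% for deep members, 1.496% under the Trac limit and 1.59% of barcodes with Ptprc. The share leaning to the ILC1 list was 44% in deep members, 76.9% under the Trac limit and 73.2% with list sums at least 2 apart in the knockout-labelled library, and 77.4% under the Trac limit and 44.4% in thinned members in the wild-type library.

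The median log2 ratio of the NK receptors was -0.18 with at least 3 UMIs of the rule genes and -0.28 with cells weighted equally, that of the adaptors 0.051 with cells weighted equally and 0.056 under the Trac limit, and that of the imprinted neighbours -0.47 in deep members. Log2 ratios that changed sign were those of Ghr (-0.025 without doublet calls), Klra5 (-0.78 in deep members), Foxo1 (0.14 under the Trac limit), Cd83 (1.69 with at least 3 UMIs of the rule genes, 0.018 with cells weighted equally, 0.51 without the 4 barcodes), H2-Ab1 (0.54 with at least 3 UMIs of the rule genes, 0.27 without the 4 barcodes), Cst3 (0.049) and H2-Aa (0.33), both without the 4 barcodes. Scaling by the median gene ratio shifted all log2 ratios by -0.10. Of the 32 named genes past the size rule, 1, Serpina1e, passed under every one of the 11 settings, and 7 under the planned ones. With these member counts, genes under 50 UMIs could not be read.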
